A study of Saccharomyces cerevisiae with 4 samples.

Results

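The genes of the small subunit of the cytosolic ribosome were examined for the chromatin protein Arp4 in budding yeast, Saccharomyces cerevisiae. They were taken as the protein-coding genes of the R64 annotation whose symbol is RPS followed by a digit, which gave 56 of 6002 genes. Of these, 48 form 24 pairs of A and B copies, and 8 are single-copy, such as RPS2, RPS3, RPS13 and RPS31. The members lie on 14 chromosomes. The samples were wild-type cells with ARP4-3FLAG (2 samples) and wild-type cells with no tag (2 samples). All grew at 30 °C in YPD, a rich medium, to mid-log phase at an optical density of about 0.6. Chromatin was precipitated with a Flag antibody in both groups. The data analysed are 1 list of 1430 peaks without values per sample, so no value below has a replicate error, the read depth is unknown, and signal in the cells with no tag was not analysed here. Counts and values below therefore describe this list, with no test.

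The small subunit is built from these proteins and the small ribosomal RNA, and it reads the messenger RNA and checks the pairing of codon and anticodon. The genes are among the most strongly transcribed in growing yeast, and most are controlled together through Rap1, Fhl1, Ifh1 and Sfp1 according to nutrient supply. Arp4, a nuclear relative of actin, is a subunit of 3 complexes that act on nucleosomes, NuA4, which acetylates histones, and the remodellers SWR1 and INO80. NuA4 is known to bind promoters of ribosomal protein genes. A peak's summit is the position of its highest signal, and its fold is the authors' linear enrichment over the peak caller's background. A promoter summit lay between 500 bp upstream and 100 bp downstream of the annotated start, and a body summit lay more than 100 bp from either end of the gene. Start and end are the edges of the gene in the annotation, and mapped transcription start and end sites were not used. No sequence of these promoters is shown, because none was used here.

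Summits of the Arp4 peak list lay at the promoters of most small subunit genes and inside even more of them. A promoter summit was present at 34 of 56 genes (60.7%), against 14% of all protein-coding genes. A body summit was present in 42 of 56 (75%), against 10.1% of all genes. Both kinds occurred in 25 genes, against 2.20% of all genes. A promoter summit alone occurred in 9 genes, a body summit alone in 17, and neither in 5. No gene had more than 1 summit of either kind. No promoter peak of a member served as the body peak of another. Within a gene the rule excludes this, because its promoter and body windows do not overlap.

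**Figure D1:**
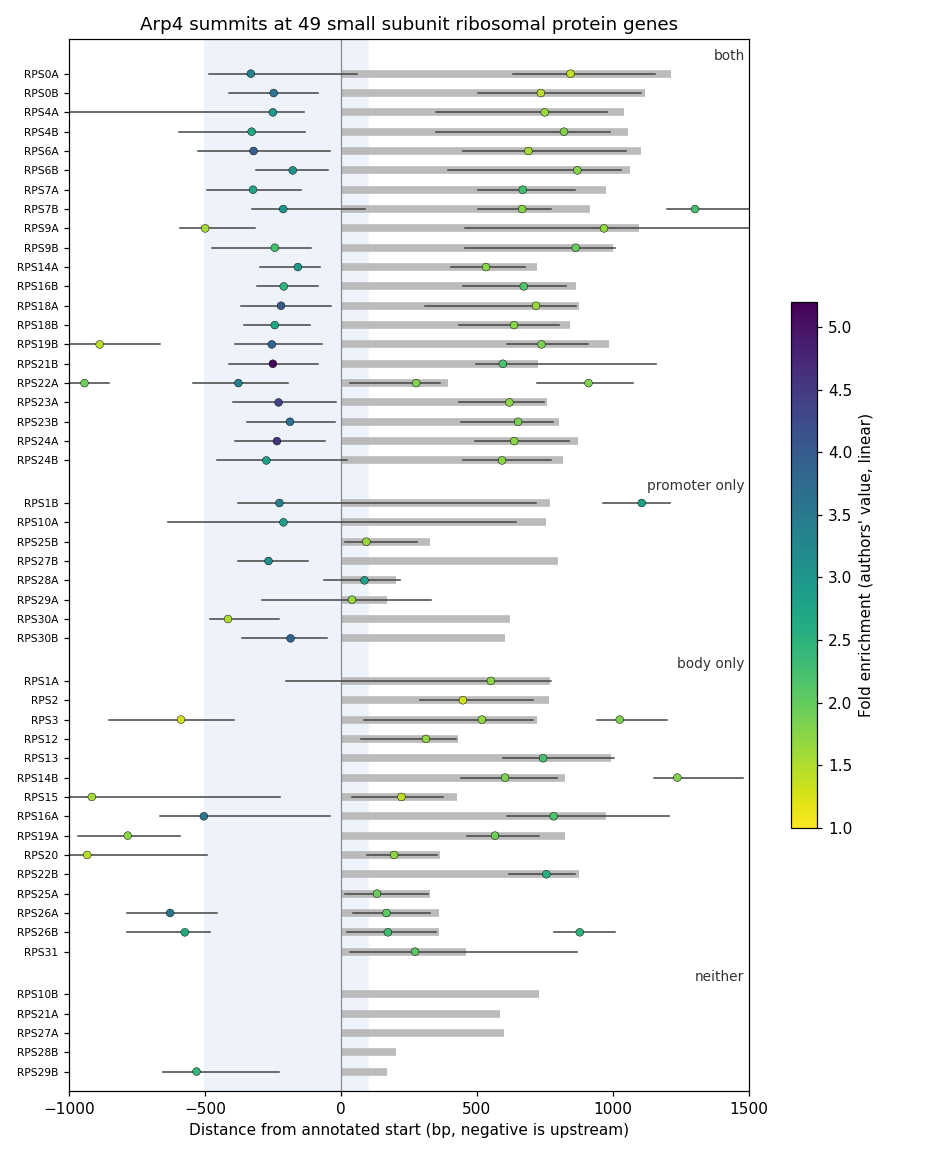
Each row is 1 of 49 small subunit genes (grey bar, from its start to its end) with peaks as lines and summits as points coloured by the authors' fold enrichment; the shaded strip is the promoter window and the x axis is distance from the start in bp. Genes are grouped by whether they have both kinds of summit (21), a promoter summit only (8), a body summit only (15) or neither (5); 7 members are not shown. The darkest points, of highest fold, lie upstream of the start.

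Promoter peaks of these genes were strong for this list. Their median fold was 3.02, with a range of 1.51 to 5.15, whereas the strongest promoter peak of the 839 genes with one had a median of 1.88 and all 1430 peaks had a median of 1.66. A fold of at least 3 was reached at 18 of 56 members, against 1.73% of all genes, and a fold of at least 2 at 30, against 5.96%. Of the 100 strongest peaks in the list, 24 were promoter peaks of small subunit genes.

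Proteins of the body and platform, the larger part of the subunit below its head, are encoded by 34 of the 56 genes, and 23 of them had a promoter summit. The highest fold of all members, 5.15, was at RPS21B (chromosome X, 157358 to 157684), which encodes a protein on the back of the subunit next to Rps0. It ranked 4 in the list, and its −log10 q, the authors' measure of confidence in a peak, was 240.5. RPS24A followed with a fold of 4.58 (chromosome V, 305934 to 306263), then RPS23A with 4.32 (chromosome VII, 726578 to 726955). Rps23 lies in the decoding centre and affects the accuracy of translation. RPS6A, whose product is phosphorylated in response to TOR signalling, had 3.91 (chromosome XVI, 378436 to 378922).

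Several more body and platform genes lay between 3 and 4. Rps22 joins the ribosomal RNA early in assembly, and Rps30 lies near the entry of the messenger channel. RPS30B had a promoter fold of 3.84, with its summit inside the annotated gene FYV12, and RPS23B had 3.63. RPS0B had 3.56 and RPS0A 3.36. Rps0 is needed for late maturation of the subunit. RPS1B (3.40), RPS22A (3.39), RPS27B (3.10), RPS6B (3.02) and RPS7B (3.01) also lay at or above 3. Rps1 lies on the platform near the exit of the messenger channel, and Rps27 is a zinc-binding protein. RPS4A (2.94), RPS14A (2.92), RPS24B (2.83), RPS7A (2.74), RPS4B (2.69) and RPS9B (2.24) lay below 3. Rps14 and Rps9 are known to limit the splicing of their own gene transcripts. The weakest were RPS9A (1.58, summit 499 bp upstream) and RPS30A (1.51, summit 415 bp upstream), and the RPS30A summit lay inside the neighbouring gene MEC3.

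Proteins of the head, the part that swivels as the ribosome moves along the messenger, are encoded by 22 genes, and 11 had a promoter summit. The median fold in these 11 was 2.83, against 3.10 in the 23 body and platform genes. The 2 sets differ in summit position, as 3 of the 11 summits but none of the 23 lay inside the gene. RPS18A had 4.03 (chromosome IV, 1359555 to 1359886). RPS19B followed with 3.84 (chromosome XIV, 63012 to 63334). Rps19 is the yeast form of a protein whose human gene is mutated in Diamond-Blackfan anaemia. RPS10A, whose product lies on the outer head, had 2.87. RPS28A (2.83), RPS18B (2.72), RPS16B (2.48), RPS29A (1.67) and RPS25B (1.64) were lower. Rps16 and Rps18 reach toward the transfer RNAs, and Rps25 is known for its part in initiation at some viral messengers. The assignment of proteins to head or body comes from textbook knowledge of the subunit and not from the peak list.

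Promoter summits were gathered in a narrow zone upstream of the start. Their median position was 239 bp upstream, and the middle 50% of genes lay from 193 to 272 bp upstream. In 28 of 34 genes (82.4%) the summit was 150 to 350 bp upstream, against 196 of 763 (25.7%) genes outside both ribosomal protein groups. The 50 bp from 250 to 200 bp upstream alone held 14 of the 34. None of the 34 summits lay in the 150 bp just before the start. This zone was drawn after the positions had been seen.

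**Figure D2:**
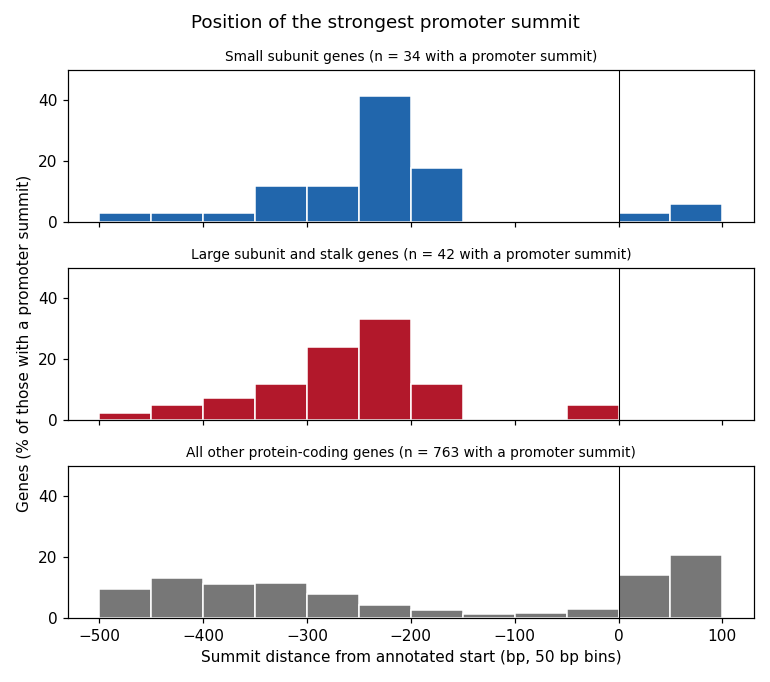
Histograms of the distance of the strongest promoter summit from the annotated start, in bins of 50 bp, as a percentage of genes with such a summit. Small subunit genes (34) peak at 250 to 200 bp upstream (41.2%), and large subunit and stalk genes (42) at the same bin (33.3%). For other protein-coding genes (763) the tallest single bin is the last, inside the gene (20.7%). In all, 34.7% of these summits lie inside the gene and the rest upstream.

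The exceptions fell on both sides of that zone. RPS28A, RPS25B and RPS29A had their summits 87, 94 and 41 bp inside the gene. Rps28 and Rps29 are among the smallest ribosomal proteins, and the RPS28A and RPS29A peaks covered 100% of their genes. RPS22A (377 bp upstream), RPS30A and RPS9A lay beyond 350 bp. The RPS9A summit was 1 bp inside the outer edge of the promoter window. Just outside that edge were summits at members counted as having none, most of them strong. Among them were summits 504 bp upstream of RPS16A (fold 3.54), 531 bp upstream of RPS29B (2.42) and 574 bp upstream of RPS26B (2.63). RPS26A followed at 628 bp (3.55), and the summit 588 bp upstream of RPS3 was weak (1.27). Both copies of RPS26, whose product touches the messenger beside the start codon, thus had a summit more than 500 bp upstream. At RPS26A, however, the next upstream protein-coding gene was 235 bp away, so that summit lay past the near edge of another gene. With a window reaching 1000 bp upstream, 44 of 56 genes had a promoter summit, against 23.7% of all genes. With one from 250 bp upstream to the start, 20 had one, against 2.23%.

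Peaks inside small subunit genes were weaker and lay toward the 3′ end. The 42 body peaks had a median fold of 1.79 and a range of 1.32 to 2.54, against a median of 1.55 over the 609 genes with a body summit. In 39 of 42 (92.9%) the summit was past the gene's midpoint, against 49.1% of the 499 genes outside both ribosomal protein groups. Over other genes of the same range of lengths as the members the share was 55.3%, of 215 with a body summit. The median summit lay 193 bp before the gene's end, and the middle 50% from 160 to 244 bp. The 3 summits before the midpoint were at RPS25A, RPS26A and RPS26B, which are short genes. Gene lengths include introns, whose positions were not used here.

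The order of the genes by body fold differed from that by promoter fold. RPS22B led with 2.54 (chromosome XII, 857061 to 857305, summit 119 bp before the end) and had no promoter summit. RPS26B had 2.28 and RPS7A had 2.25. RPS13 (2.22), RPS21B (2.21), RPS16A (2.19), RPS16B (2.14), RPS31 (2.09) and RPS26A (2.07) also lay at or above 2. RPS31 encodes a fusion of ubiquitin with a ribosomal protein. A body fold of at least 2 was present in 10 of 56 members, against 1.10% of all genes. The next 28 lay between 1.57 (RPS6A) and 1.97 (RPS9B). The lowest were RPS2 (1.32), RPS0A (1.4), RPS15 (1.42) and RPS0B (1.45). Rps2 lines the entry of the messenger channel and Rps15 sits near the decoding site. With a margin of 200 bp from both ends, body summits remained in 20 members, against 6.48% of all genes.

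In genes with both kinds of peak the promoter peak was nearly always the stronger. It was higher in 24 of 25 members, by 0.84 on average on the log2 scale (SD 0.40 over the 25 genes, range -0.09 to 1.39). The largest differences were at RPS24A (4.58 at the promoter, 1.74 in the body), RPS23A (4.32 and 1.73) and RPS6A (3.91 and 1.57). RPS9A was the exception, with 1.58 and 1.68. RPS9B (2.24 and 1.97), RPS16B (2.48 and 2.14) and RPS7A (2.74 and 2.25) came closest to equal among the rest. The 2 summits of a gene were 654 to 1467 bp apart, with a median of 916 bp. Among the 35 large subunit and stalk genes with both, the promoter peak was higher in 35, and among 72 other genes in 53.

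**Figure D3:**
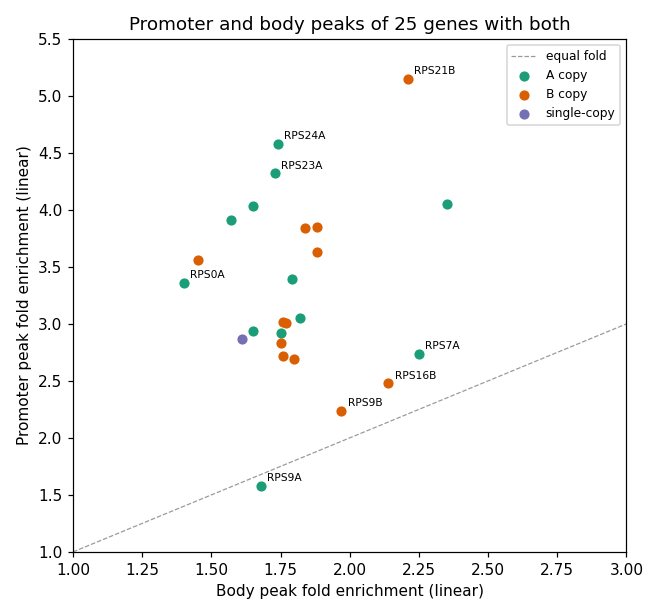
Fold enrichment of the promoter peak (y axis) against that of the body peak (x axis) for the 25 small subunit genes with both, coloured by copy; the dashed line marks equal fold. All points except RPS9A (1.58 against 1.68) lie above the line; body folds stay at or below 2.35 and promoter folds reach 5.15.

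The A and B copies of a gene encode the same or nearly the same protein, and their promoters have diverged more than their coding parts. As sets the copies looked alike, with promoter summits at 16 of 24 A genes and 17 of 24 B genes and median folds of 2.99 and 3.02. Pair by pair they differed. Both copies had a promoter summit in 11 pairs, the A copy alone in 5, the B copy alone in 6, and neither in 2. Whether copies shared a summit more or less often than unrelated members at these rates was not tested. How reads shared by near-identical copies were placed is not given in the sources used here, so values inside the genes may be split or mixed between copies.

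Among the 11 pairs with both, A had the higher fold in 6 and B in 5. The median absolute log2 difference was 0.37, and the range was 0.08 to 1.35. RPS30 differed most, with 1.51 at RPS30A and 3.84 at RPS30B, and both summits lay inside other annotated genes (MEC3 and FYV12). RPS24 (4.58 and 2.83) and RPS18 (4.03 and 2.72) were higher at A. RPS9 (1.58 and 2.24) was higher at B. RPS0 (3.36 and 3.56), RPS4 (2.94 and 2.69) and RPS7 (2.74 and 3.01) differed least. Summit positions differed between copies by 23 to 256 bp, with a median of 78 bp. The closest were RPS18 (220 and 243 bp upstream), RPS24 (235 and 274 bp) and RPS23 (229 and 187 bp).

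In the 11 pairs with a summit at a single copy, that copy was often strong. RPS21B had 5.15, whereas RPS21A overlapped no peak at all. RPS19B had 3.84, RPS1B 3.40, RPS27B 3.10 and RPS16B 2.48, with no promoter summit at their A copies. RPS22A had 3.39, RPS14A 2.92, RPS10A 2.87 and RPS28A 2.83, with none at their B copies. The others, RPS29A (1.67) and RPS25B (1.64), were weak. Their summits and that of RPS28A lay inside the gene. The RPS25A and RPS25B summits lay 133 and 94 bp inside, on either side of the 100 bp edge. RPS25A was thus counted as having a body summit and RPS25B a promoter summit. RPS16A and RPS29B, counted as having none, had the summits just outside the window described above, at 504 and 531 bp. The peaks of those summits reached into the window, to 39 and 228 bp upstream of the start. The RPS1A peak had its summit 552 bp inside the gene but began 203 bp upstream, inside the promoter window. When any base of a peak in the window was counted in place of its summit, 17 pairs had both copies, and with the window from 250 bp upstream to the start 4 did.

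**Figure D4:**
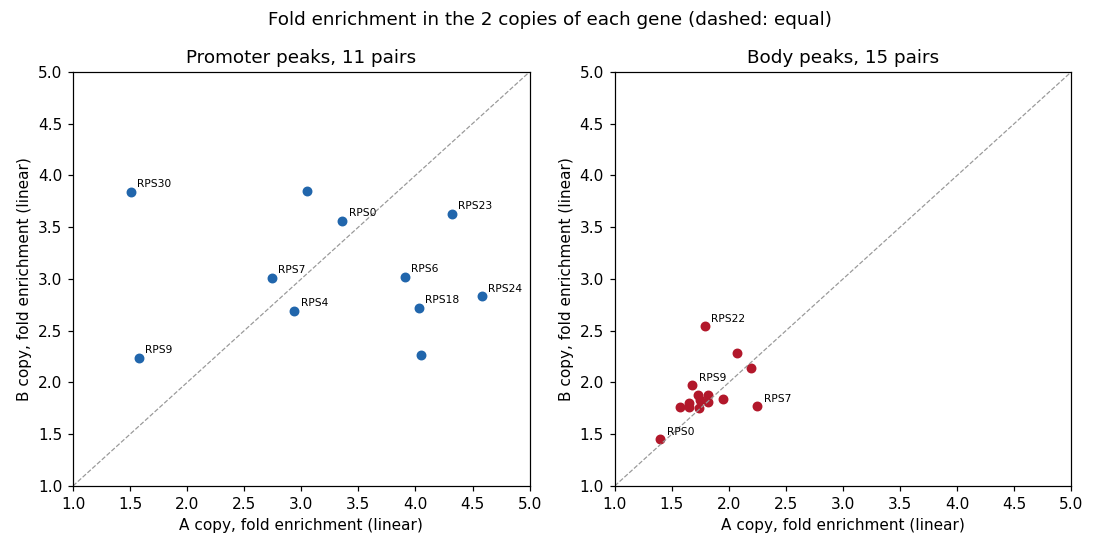
Fold enrichment of the B copy (y axis) against the A copy (x axis) for promoter peaks (left, 11 pairs) and body peaks (right, 15 pairs), on the same linear scale with a dashed line of equal fold. Promoter folds scatter widely around the line, with RPS30 farthest above it and RPS24 far below, while body folds of most pairs sit close to it.

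Body peaks of the copies differed less in fold than promoter peaks. Both copies had a body summit in 15 pairs, A alone in 3, B alone in 1, and neither in 5. The median absolute log2 difference in fold was 0.09, and B was higher in 11 of 15. The largest difference was at RPS22 (1.79 and 2.54, a log2 difference of -0.51), followed by RPS7 (2.25 and 1.77). Among the 9 pairs with both kinds of summit at both copies, the promoter difference was the larger in 8. The copy with the stronger promoter peak also had the stronger body peak in 3 of these 9 pairs. Over all members, however, body folds spanned a narrower range (1.32 to 2.54) than promoter folds (1.51 to 5.15). Smaller body differences between copies are therefore not read as a likeness of copies. Whether copies differed less than unrelated members, in either kind of peak, was not tested.

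Body summits of the copies matched best when measured from the gene's end. The distance from the end differed by a median of 12 bp between copies and by at most 50 bp in 12 of 15 pairs, whereas the distance from the start differed by a median of 81 bp. In RPS22 the summits lay 277 and 756 bp from the start but 115 and 119 bp from the end. In RPS16 they lay 192 and 190 bp from the end. RPS6 went against this, with 414 and 192 bp from the end. Whether reads shared between copies bear on this likeness was not tested.

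**Figure D5:**
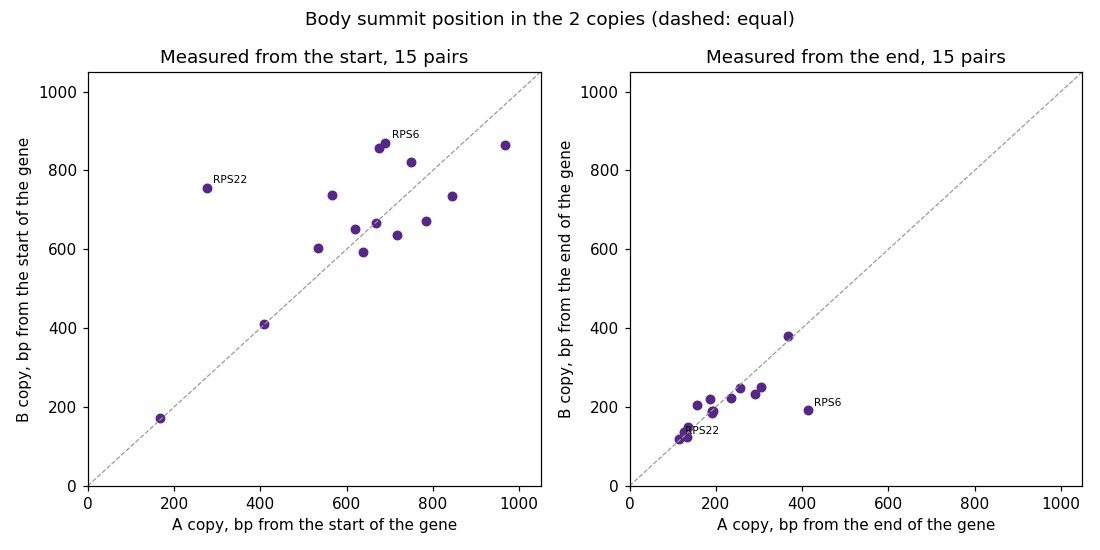
Position of the body summit in the B copy (y axis) against the A copy (x axis) for 15 pairs, measured in bp from the gene's start (left) and from its end (right); the dashed line marks equal position. Points lie closer to the line on the right (median difference 12 bp) than on the left (81 bp), with RPS6 as the point farthest from it on the right.

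The 8 single-copy genes had body summits in 8 of 8 cases, against 10.1% of all genes, but a promoter summit in 1, against 14%. RPS13, which helps join the subunits, had the highest body fold (2.22; chromosome IV, 580056 to 580464), then RPS31 (2.09). RPS20 (1.71), RPS12 (1.69), RPS3 (1.68), RPS15 (1.42) and RPS2 (1.32) were lower. Rps3 and Rps20 lie in the head at the entry of the messenger channel, and Rps12 at its outer edge, the beak. With 8 genes, a difference from the paired genes, of which 33 of 48 had a promoter summit, was not tested. The nearest summits upstream of RPS20 and RPS15 were 933 and 916 bp from the start and weak (1.47 and 1.59).

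Members were divided by the direction of their upstream neighbour. The next annotated protein-coding gene upstream was divergent for 34 members and in tandem for 22. The same counts over all genes are not given here, so these are not read as a trait of the members. Promoter summits were present at 23 of the 34 and at 11 of the 22, with median folds of 2.94 and 3.02. Of the 22 tandem members, 9 had less than 500 bp to the upstream gene and 2 of these had a summit, against 9 of the 13 with more. Of the 6 divergent members with less than 500 bp, 5 had one. This division was made after the values had been seen.

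In 14 of the 34 members with a promoter summit, it also lay in the promoter window of another gene, with no share over all genes given here. The small subunit gene's start was the nearer in 11 of these. Examples are RPS23A (229 bp, against 266 bp for YGR117C) and RPS27B (266 bp, against 290 bp for ECM12). It was the farther for RPS9A (499 bp, against 368 bp for MOT1), RPS9B (243 bp, against 158 bp for NTC20) and RPS22A (377 bp, against 254 bp for RPL39). When each summit went to its nearest start alone, 30 members kept a promoter summit, against 9.98% of all genes. None of the 34 summits lay within 150 bp of an annotated RNA gene.

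Some small subunit genes neighbour a large subunit gene, and duplicated neighbours had Arp4 summits in different places. RPS16A diverges from RPL13B and RPS16B from RPL13A, so both regions lie between genes for the same pair of proteins. Between RPS16A and RPL13B the summit (3.54; chromosome XIII, 551264 to 551889) lay 504 bp from RPS16A and 217 bp from RPL13B. Between RPS16B and RPL13A it (2.48; chromosome IV, 307872 to 308098) lay 210 bp from RPS16B and 425 bp from RPL13A. The single summit thus stood nearer the large subunit gene in one region and nearer the small subunit gene in the other. The peak beside RPS16A was wide, however, and ran from 664 to 39 bp upstream of that gene. The peak beside RPS16B ran from 309 to 83 bp upstream. Summit places alone do not show how far each peak reached. Between RPS22A and RPL39 it (3.39; chromosome X, 75497 to 75847) was nearer RPL39. RPS15 and RPP2A, which encodes a stalk protein, had no summit between them. A weak peak (1.59) with its summit 916 bp upstream of RPS15 did reach into this region, to 225 bp from RPS15.

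Members without a body summit were of several kinds. The rule leaves no or almost no body window in RPS28A, RPS28B, RPS29A and RPS29B, which span 171 to 204 bp. In RPS1B and RPS10A a wide promoter peak (1098 and 1279 bp) covered 93.5% and 85.3% of the gene. RPS25B was covered to 80.7% by its promoter peak. No peak touched RPS10B, RPS21A, RPS27A, RPS27B, RPS28B, RPS29B, RPS30A or RPS30B. Of these 8, the RPS27B, RPS30A and RPS30B genes had a promoter summit, and RPS10B, RPS21A, RPS27A, RPS28B and RPS29B were the 5 members with neither kind. Apart from the summit 531 bp upstream of RPS29B, the next summits upstream of those 5 were over 1000 bp away.

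Arp4 peaks at large subunit and stalk genes had a similar layout. Promoter summits were present at 42 of 81 of these (51.9%) and body summits in 68 (84.0%). Their median promoter fold was 3.54 and their median body fold 1.76, beside 3.02 and 1.79 at small subunit genes. The median promoter summit was 250.5 bp upstream, and 62 of 68 body summits (91.2%) were past the midpoint. These values are set side by side with no test of a difference.

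Of 14 genes listed for regulators of this regulon, 1 had a promoter summit, against 14% of all genes, and 2 had a body summit, against 10.1%. The promoter summit was at DOT6 (1.41), which encodes a repressor of ribosome biogenesis genes. Body summits lay in RAP1 (1.34) and in TOD6 (1.38), the paralogue of DOT6. FHL1, IFH1, SFP1, HMO1, CRF1, ABF1, STB3, GCN5, ESA1, SCH9 and TOR1 had neither. Among 4 genes of other proteins linked to the ribosome, body summits lay in ASC1 (1.69), STM1 (1.55) and TMA19 (1.58), and TMA19 also had a promoter summit (2.34). ASC1 encodes a protein of the subunit's head outside the RPS names. NAT1, encoding part of an acetyltransferase that acts on nascent proteins, had neither.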

How the data were processed

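The submitters' processing notes name, without settings, MACS2, BWA 0.7.15-r1140, SAMtools 1.4 and fastp 0.21.0. Not given in the sources used here are the genome build, control, threshold, placement of reads with several matches, and pooling. The deposited data are 1 peak list. The authors' fold is a linear ratio, and the authors' −log10 value used is that of q, at least 1.31. The authors' score column was 10 times the −log10 q, cut to a whole number, in 100% of rows, and was left aside.

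Positions are counted from 1. Genes came from the R64 RefSeq table, with strand read from systematic names. As a check of the match, 48 of 275 tRNA genes had a summit within 100 bp. Moving all summits by 200 to 1000 bp left 4 to 13. The strongest peak of each kind per gene was used. Summit assignment was tested on simulated data with planted summits. Python 3.11.15, numpy 2.4.6, pandas 2.3.3, scipy 1.17.1 and matplotlib 3.10.9 were used.

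Members and lists were chosen with earlier results of these data known. Every member could be named, with neighbours sharing a summit and the listed regulators. Promoter motifs, although planned, were not searched. Alternatives changed the windows, thresholds and assignment. Results for 7 members by name are not reported here, although counts and medians include them.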

Additional observations from a re-analysis of the deposited data

How the results depend on the processing

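Of 26 alternatives, 22 moved the value by less than 1.5 times, or kept the median within its 95% binomial interval (2.83 to 3.56 for fold, 211 to 254 bp upstream for position). That interval is over genes, because the list has no replicates. The 4 exceptions came from windows. With a window from 250 bp upstream to the start, 20 members had a promoter summit and 4 pairs had one at both copies. With any peak base counted, 17 pairs did. With a margin of 200 bp, 20 members had a body summit, against 6.48% of all genes. The narrow window leaves out the summits beyond 250 bp upstream and the 3 inside the gene. Of the 22 body summits lost at the wider margin, 5 were in genes of at most 400 bp, which it leaves no body window. The other 17 lay within 200 bp of an end of longer genes. The alternatives of body genes with at least 100 bp between the margins, and of pairs by nearest start, were chosen after seeing the data. The former left the count at 42, as the genes it leaves out had no body summit. Taking the summit nearest the start could not change either median, because no member had more than 1 promoter summit. These alternatives therefore say nothing about stability. No paired analysis was possible because the list has no values per sample. For the same reason no sample could be left out, and neither replicate agreement nor depth limits could be measured.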
